A study of Mus musculus with 12 samples.

Results

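Ogdhl and 8 further enzyme genes of the tricarboxylic acid (TCA) cycle, 9 genes in all, were followed in sorted cells of the mouse hippocampus, out of 27866 genes counted in the astrocyte table and 30359 in the microglia table. The 9 genes were Ogdhl, Ogdh, Dlst, Cs, Idh2, Idh3a, Sdha, Fh1 and Mdh2, matched by symbol to their Ensembl identifiers, and all 9 were present and tested in both tables. They were chosen by the measured Log2 FC of Ogdhl, which fell strongly between the AAV-A2A and AAV-GFP astrocytes, so this difference and every other value of Ogdhl that rests on those libraries is given as a description with no test. The rule did not use the astrocyte values of the other 8 genes. They come from the same contrast, however, and the genes were listed with earlier results of these data known.

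The mice were C57Bl6/J males that received an AAV2/9 vector on both sides of the CA1 region at 2 months of age and were studied 2 months later, at 4 months. Both vectors use the GfaABC1D promoter, which directs expression to astrocytes, and they carry either the murine adenosine A2A receptor (AAV-A2A) or GFP (AAV-GFP, the control), so that control animals also had surgery and a viral capsid. Astrocyte-enriched cells were captured from the dissociated hippocampus with ACSA-2 microbeads after removal of myelin, and microglia-enriched cells with CD11b microbeads from what the first column let through. Each fraction and vector has 3 libraries, named here by vector and replicate number. The groups are described as 3 animals each, but the labels tie no library to an animal, so the p-values are taken to measure the spread between these libraries.

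The TCA cycle oxidises acetyl-CoA in the mitochondrial matrix and passes the electrons to the respiratory chain. Citrate synthase (Cs) starts it, isocitrate dehydrogenases (Idh3a for the NAD-dependent enzyme, Idh2 for the NADP-dependent one) make 2-oxoglutarate, the 2-oxoglutarate dehydrogenase complex turns that into succinyl-CoA, and succinate dehydrogenase (Sdha), fumarase (Fh1) and malate dehydrogenase (Mdh2) close the circle. The 2-oxoglutarate dehydrogenase complex is built from an E1 dehydrogenase, an E2 succinyltransferase (Dlst) and an E3 subunit (Dld), and the E1 part can come from either of 2 genes, the widespread Ogdh or its paralog Ogdhl, which is known chiefly from brain. In astrocytes this step also receives the carbon of glutamate, which these cells take up from synapses.

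The paralogs lie on different chromosomes. Ogdhl (ENSMUSG00000021913) is at chr14:32322019-32348151 on the plus strand of GRCm38 and Ogdh (ENSMUSG00000020456) at chr11:6291633-6356642, also on the plus strand. No exon of any of the 9 genes overlaps an exon of another gene in GENCODE vM21; the counting used another Ensembl release, for which this was not checked. The A2A receptor raises cyclic AMP, and the bases just before the start sites of the E1 genes are shown to compare their cyclic AMP response element (CRE) letters. They are the 250 bases before the start site in RefSeq (GRCm38.p6), at chr14:32321769-32322018 for Ogdhl and at chr11:6291347-6291596 for the first of the 6 start sites of Ogdh, and the capitals mark TGACG or its reverse complement CGTCA.
Ogdhl: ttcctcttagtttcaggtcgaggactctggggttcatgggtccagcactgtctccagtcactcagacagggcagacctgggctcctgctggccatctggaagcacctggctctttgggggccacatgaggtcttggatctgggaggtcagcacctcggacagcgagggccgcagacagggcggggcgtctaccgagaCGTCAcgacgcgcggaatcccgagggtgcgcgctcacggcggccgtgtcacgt
Ogdh: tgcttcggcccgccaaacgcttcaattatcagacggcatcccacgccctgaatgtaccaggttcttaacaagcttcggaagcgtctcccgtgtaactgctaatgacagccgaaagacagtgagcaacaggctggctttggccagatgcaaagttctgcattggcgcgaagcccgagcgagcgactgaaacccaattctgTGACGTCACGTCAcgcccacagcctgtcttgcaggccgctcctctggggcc
The Ogdhl sequence holds 1 such match, which begins 53 bases before the start. The Ogdh sequence holds 3, of which the first and second overlap in the full palindrome TGACGTCA from 51 bases before the start and the third follows directly. The palindrome lies before the first 3 of the 6 listed Ogdh start sites and not within 250 bases before the other 3, which have 0, 1 and 1 of the shorter matches. On either strand, the shorter motif occurs in 17.8% and the palindrome in 1.55% of 32851 promoter sequences of the same length, counting every listed start site. These matches describe the letters and say nothing on whether a factor binds there.

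The 6 astrocyte libraries held 33937067 to 49217553 gene counts each and the 6 CD11b libraries 36098295 to 53206974, and the lowest count of any of the 9 genes in any library was 80 (Ogdhl in CD11b library A2A-2344). Levels are given as CPM, counts scaled to library size, on 1 TMM scale over all 12 libraries. The vector itself was visible in Adora2a, the gene of the receptor. It was at 25.0, 23.2 and 25.6 CPM in AAV-GFP astrocytes and at 764, 655 and 927 CPM in AAV-A2A astrocytes (Log2 FC 5.02, SE 0.21). In the CD11b libraries Adora2a was also higher with AAV-A2A, at a mean of 26.3 CPM against 5.58 CPM, and the groups did not overlap. This was not called by edgeR (Log2 FC 2.20, SE 0.54, Padj = 0.280) but was called by DESeq2 (2.21). The source of these CD11b transcripts was not tested. The 7 astrocyte markers summed to 8568 to 12775 CPM in the ACSA-2 libraries and to 221 to 426 CPM in the CD11b libraries, and the 8 microglial markers to 256 to 473 and 7106 to 58698 CPM. The CD11b libraries were of different kinds. In GFP-2328, GFP-2329 and A2A-2347 the 5 choroid plexus markers, led by Ttr, summed to 72899, 60611 and 29286 CPM, against 94.1, 72.0 and 9.68 CPM in GFP-2331, A2A-2343 and A2A-2344, and the microglial markers were lowest there (7106, 14498 and 20213 CPM against 48402 to 58698). Without these 3 the CD11b fraction keeps 1 AAV-GFP and 2 AAV-A2A libraries, so the values given without them rest on a single control library, and the fits then assume that it varies like the other libraries. Other cell types also differed between the vectors in this fraction: the 5 erythrocyte markers summed to 1016 to 5985 CPM with AAV-GFP and 56.7 to 253 CPM with AAV-A2A, and the 7 neuronal markers were also higher in every AAV-GFP library, at up to 207 CPM, than in the AAV-A2A libraries, at 5.31 to 15.7 CPM, although no marker was called. Their part in the CD11b vector values below was not tested.

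Ogdhl stood at 441, 514 and 509 CPM in the AAV-GFP astrocyte libraries GFP-303, GFP-306 and GFP-307. In the AAV-A2A astrocyte libraries A2A-309, A2A-310 and A2A-313 it stood at 104, 77.9 and 95.4 CPM. Every AAV-A2A library was far below every AAV-GFP library, with means of 488 ± 41.0 and 92.5 ± 13.4 CPM (SD, n = 3). The difference is a Log2 FC of -2.37 (SE 0.18), or 5.18-fold lower, and it stayed between -2.46 and -2.26 when any 1 library was left out. It was the 207th lowest Log2 FC of 16451 genes tested in astrocytes, and 3.19% of those genes were called lower, 0.176% called higher and 3.36% called in either direction (Padj under 0.05 and an absolute Log2 FC over 0.32). In bulk libraries such as these, fewer cells of a type and less RNA per cell cannot be told apart. Astrocyte markers did not fall with Ogdhl: none of the 7 was called, their median Log2 FC was 0.25, and the summed level was 9050 to 9332 CPM with AAV-GFP and 8568 to 12775 CPM with AAV-A2A. Single markers of other cell types were called. Of 2 oligodendrocyte precursor markers, which summed to 194 to 302 CPM with AAV-GFP and 49.2 to 75.5 CPM with AAV-A2A, Cspg4 was called lower (Log2 FC -2.17, SE 0.24, Padj = 0.00226). The other, Pdgfra, was at 4.16 to 7.52 CPM with AAV-GFP and 4.30 to 4.54 CPM with AAV-A2A and was not called (Log2 FC -0.39, SE 0.42). Of 4 endothelial markers, which summed to 350 to 412 and 193 to 335 CPM, Flt1 was called lower (Log2 FC -1.66, SE 0.24, Padj = 0.00523). Cdh5 (-2.62, SE 0.81), Pecam1 (-0.50, SE 0.32) and Cldn5 (0.05, SE 0.24) were not called. No marker of these lists was at 0 in a whole group. The part of these cells in the fall of Ogdhl was not tested.

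**Figure D1:**
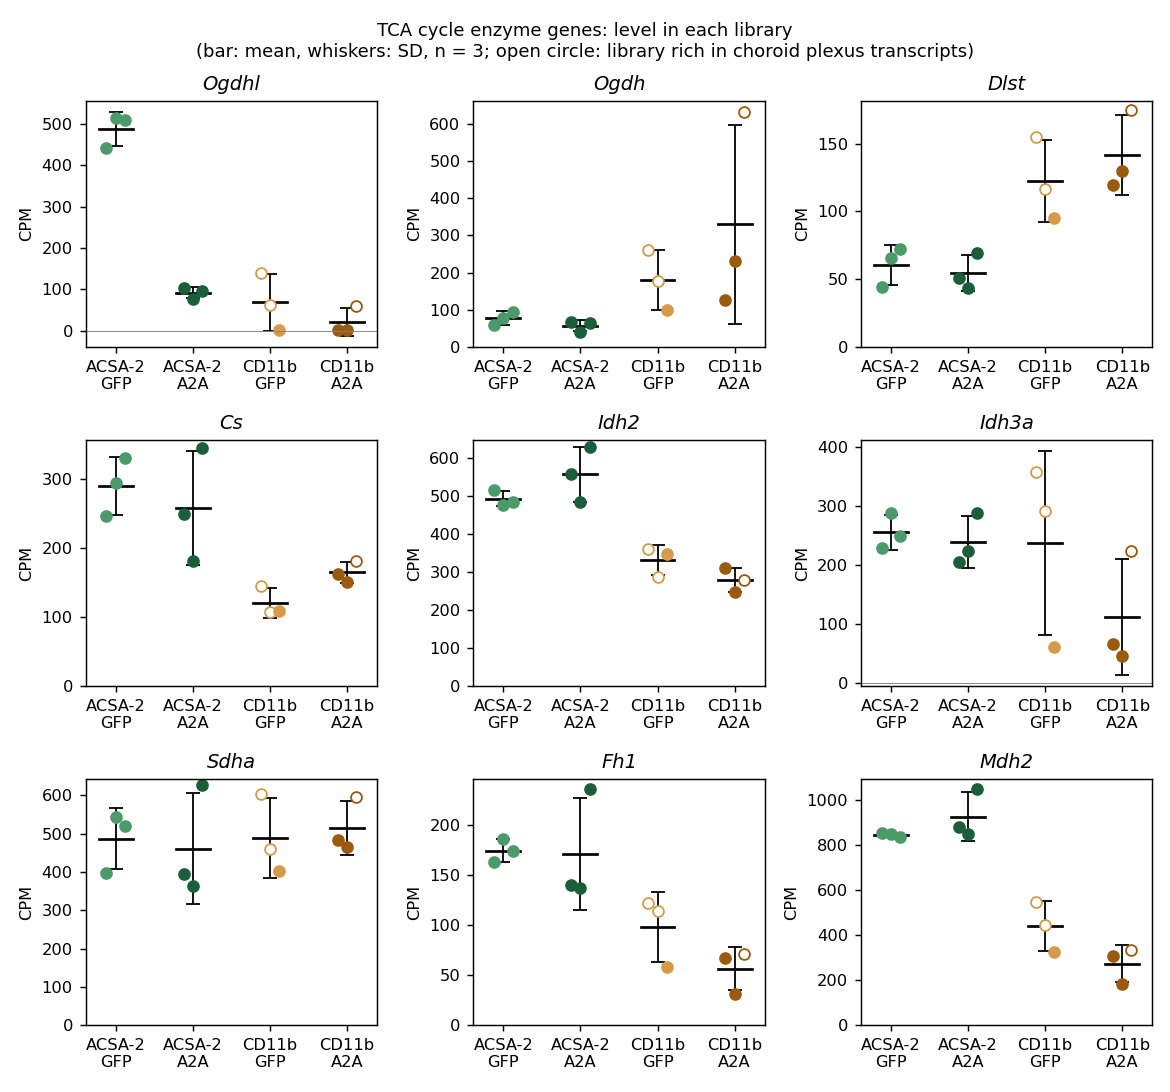
Level of each of the 9 TCA cycle genes in CPM (vertical axes, linear) in each of the 12 libraries, by fraction and vector, with the mean as a bar and the SD as whiskers (n = 3). Open circles mark the 3 CD11b libraries rich in choroid plexus transcripts. In the ACSA-2 fraction Ogdhl goes from 441 to 514 CPM with AAV-GFP down to 77.9 to 104 CPM with AAV-A2A, while the points of the other 8 genes overlap between the vectors.

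None of the other 8 TCA cycle genes was called in astrocytes, and for none of them were the groups apart; over all tested genes the groups did not overlap for 19.4%. Their Log2 FC ranged from -0.40 to 0.20 with a median of -0.06, beside a median of 0.02 over all tested genes, and Padj ran from 0.613 to 0.998. Ogdh, the other E1 gene, was at 58.1, 79.0 and 95.3 CPM with AAV-GFP and 66.5, 40.8 and 65.4 CPM with AAV-A2A (Log2 FC -0.40, SE 0.26). The AAV-A2A libraries lay partly inside the AAV-GFP range, and the lower mean did not pass the test. Dlst, the E2 core, was at 43.9, 65.6 and 72.1 CPM against 51.3, 43.4 and 69.1 CPM (Log2 FC -0.12, SE 0.26). Of the enzymes before the complex, Cs went from 246, 294 and 330 CPM to 249, 181 and 344 CPM, with A2A-310 low and A2A-313 high (Log2 FC -0.14, SE 0.24). Idh2 was at 517, 478 and 486 CPM against 558, 485 and 629 CPM (Log2 FC 0.20, SE 0.17). The Log2 FC of Idh3a, the catalytic subunit of the NAD-dependent enzyme, was -0.06 (SE 0.19), with 229, 287 and 249 CPM against 204, 224 and 288 CPM. After the complex, Sdha, the flavoprotein of succinate dehydrogenase, was at 397, 544 and 519 CPM against 394, 363 and 626 CPM (Log2 FC -0.05, SE 0.24). Fumarase (Fh1) stood at 163, 186 and 174 CPM with AAV-GFP and at 139, 137 and 235 CPM with AAV-A2A (Log2 FC 0.0045, SE 0.23). Mdh2 was at 851, 847 and 832 CPM against 879, 847 and 1047 CPM (Log2 FC 0.16, SE 0.16). Library A2A-313 was the highest AAV-A2A library for each of these genes except Ogdh. With standard errors of 0.16 to 0.26, a change of the size seen for Ogdhl would be many SE from 0 for any of them, whereas small changes cannot be seen with 3 libraries a group.

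Compared per kb of annotated exon, Ogdhl was an abundant gene of the cycle in control astrocytes. Mdh2 came first at 237 ± 2.72 CPM per kb, then Idh2 at 191 ± 7.88, Sdha at 118 ± 19.0 and Ogdhl at 118 ± 9.88 CPM per kb (SD, n = 3). Sdha and Ogdhl overlapped, and so did Fh1, Idh3a and Cs, the next 3, at 51.3, 50.3 and 50.2 CPM per kb. Ogdh followed at 14.2 ± 3.42 and Dlst at 6.33 ± 1.54 CPM per kb. In the AAV-A2A astrocytes the order of the other genes was the same, and Ogdhl came seventh, at 22.3 ± 3.23 CPM per kb, between Cs (44.7 ± 14.2) and Ogdh (10.5 ± 2.65). The order depends on the length used. The exons of Dlst together cover 9559 bases but its longest coding transcript 2764, and on the latter length Dlst, at 21.9 CPM per kb, comes before Ogdh, at 18.8 CPM per kb, in AAV-GFP astrocytes. Likewise Fh1, at 66.0 CPM per kb on that length, falls below Cs (99.1) and Idh3a (98.9), while the first 4 genes keep their order.

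The balance of the E1 genes shifted with the fall. Per kb, Ogdhl made up 90.9, 89.5 and 87.5% of Ogdhl plus Ogdh in the AAV-GFP astrocyte libraries and 67.3, 71.5 and 65.7% in the AAV-A2A ones. The groups did not overlap, and the mean share fell by 21.1 percentage points, from 89.3 ± 1.69 to 68.2 ± 2.97% (SD, n = 3), a description of the values that chose the gene. Ogdhl thus stayed the larger of the E1 transcripts in all 6 astrocyte libraries. The summed E1 level went from a mean of 132 CPM per kb (117 to 140.2) to a mean of 32.8 (26.3 to 37.3), whereas Dld, the E3 gene, had a Log2 FC of 0.07 (SE 0.20, Padj = 0.950). In the CD11b fraction Ogdh was the larger in every library. The share of Ogdhl was 41.4, 31.9 and 4.11% in GFP-2328, GFP-2329 and GFP-2331 and 2.41, 1.33 and 11.3% in A2A-2343, A2A-2344 and A2A-2347, and it was highest in the 3 libraries rich in choroid plexus transcripts. Its mean differed by -20.8 percentage points between AAV-A2A and AAV-GFP microglia, which did not pass an exact two-sided permutation test (p = 0.20, where 3 against 3 libraries cannot give less than 0.10), and by -2.24 points without those 3 libraries. Between the fractions the shares did not overlap: 65.7 to 90.9% in the 6 astrocyte libraries and 1.33 to 41.4% in the 6 CD11b libraries, a mean difference of 63.4 percentage points, given without a test since the astrocyte values of Ogdhl chose the gene. The fractions stand in separate count tables, and fraction and anything else that differed between those sets of libraries cannot be told apart.

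**Figure D2:**
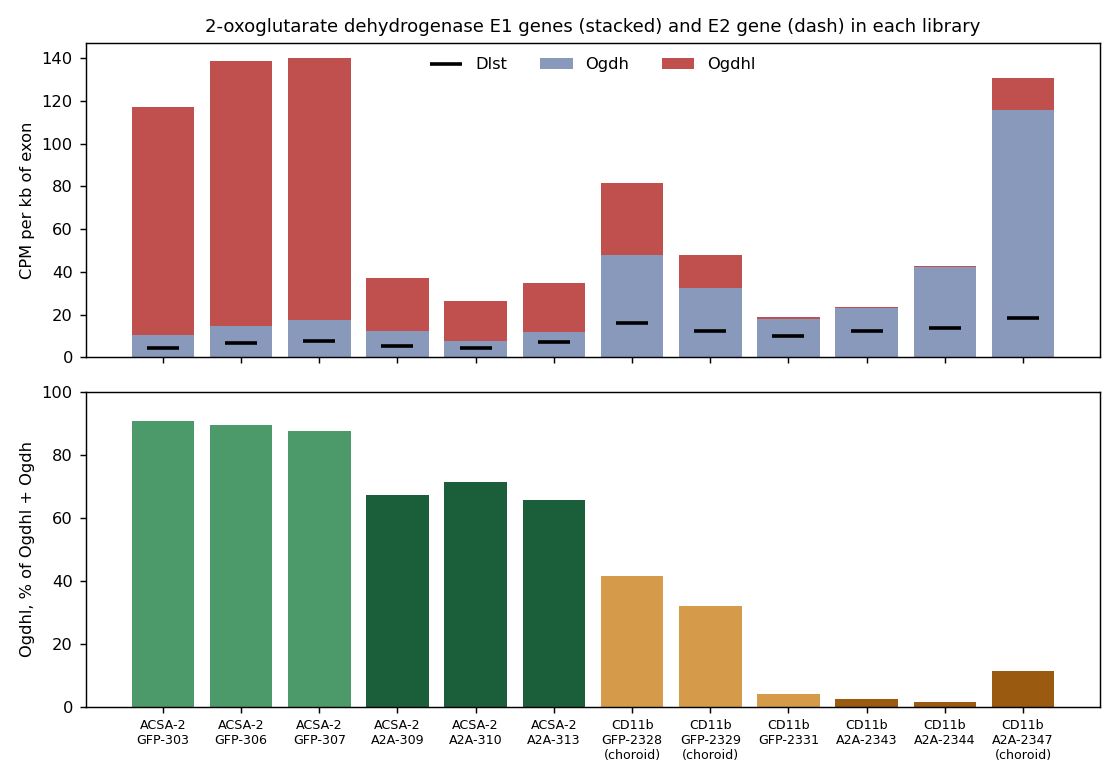
Upper panel: level per kb of exon of the E1 genes Ogdh and Ogdhl, stacked, and of the E2 gene Dlst as a dash, in each of the 12 libraries. Lower panel: Ogdhl as a percentage of Ogdhl plus Ogdh per kb, which is 87.5 to 90.9% in AAV-GFP astrocytes, 65.7 to 71.5% in AAV-A2A astrocytes and 1.33 to 41.4% in the CD11b fraction, where the libraries marked choroid are rich in choroid plexus transcripts.

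In the CD11b fraction none of the 9 genes was called between the vectors. The background there was 0.0% called of 16949 genes tested with edgeR, although 2704 genes had an unadjusted p under 0.05 and DESeq2 called 502 genes and limma-voom 0. Ogdhl was at 140.4, 63.1 and 3.24 CPM in GFP-2328, GFP-2329 and GFP-2331 and at 2.37, 2.37 and 61.0 CPM in A2A-2343, A2A-2344 and A2A-2347. The 3 libraries rich in choroid plexus transcripts were at 61.0 to 140.4 CPM and the other 3 at 2.37 to 3.24 CPM, whatever the vector. The Log2 FC of -1.60 (SE 1.64, Padj = 0.654) was -0.47 without those 3 libraries. It was -0.58 with a covariate that marked each library as rich in choroid plexus transcripts or not. It lay between -4.97 (without A2A-2347) and -0.52 (without GFP-2328) when 1 library was left out. Astrocyte markers summed to 221, 244 and 223 CPM in the libraries rich in choroid plexus transcripts and to 240 to 426 CPM in the others. The astrocyte markers did not move together, as Aldh1l1 was at 50.2, 19.8 and 84.7 CPM in the former and at 2.48, 4.33 and 16.5 CPM in the latter, whereas Slc1a3 was at 59.2, 101.9 and 87.9 CPM and at 194, 182 and 234 CPM. The part of choroid plexus cells or astrocytes in these levels was not tested.

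Idh3a followed the same libraries, at 358, 291 and 60.4 CPM with AAV-GFP and 65.1, 44.8 and 224 CPM with AAV-A2A (Log2 FC -1.08, SE 0.88), or -0.16 without the 3 libraries. Fh1 (70.9 to 123 CPM against 31.7 to 67.1 CPM) and Mdh2 (334 to 549 CPM against 181 to 325 CPM) were also higher in all 3 libraries rich in choroid plexus transcripts than in the other 3. This held for 4 of the 9 genes, and for 18.2% of all genes tested in this fraction. Ogdh ran from 99.3 CPM in GFP-2331 to 632 CPM in A2A-2347, and its Log2 FC between the vectors of 0.89 (SE 0.72, Padj = 0.567) was -0.10 without A2A-2347 and 0.83 without the 3 libraries rich in choroid plexus transcripts. Cs was the only one of the 9 whose vector groups did not overlap, at 145, 108 and 109 CPM with AAV-GFP and 163, 152 and 181 CPM with AAV-A2A, and this was not called (Log2 FC 0.43, SE 0.30, Padj = 0.508); the groups were apart for 22.4% of all genes. Idh2, Sdha and Dlst overlapped between the vectors in this fraction, with ranges of 247 to 362, 402 to 604 and 95.4 to 175 CPM and Log2 FC of -0.28 (SE 0.32), 0.05 (SE 0.38) and 0.19 (SE 0.35). Without the 3 libraries the values were 0.50 for Cs, -0.34 for Idh2, 0.22 for Sdha, 0.36 for Dlst, -0.27 for Fh1 and -0.43 for Mdh2, none of them called. When the vector effect in astrocytes was set against that in microglia in 1 fit, none of the 8 genes other than Ogdhl differed (Padj from 0.317 to 0.872; 0.403% of 18602 genes were called). For Ogdhl the difference was -0.75 (SE 1.70), it was -1.96 without the 3 libraries rich in choroid plexus transcripts and 2.46 without A2A-2347, so the CD11b libraries do not allow a statement on whether its fall is particular to astrocytes.

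**Figure D3:**
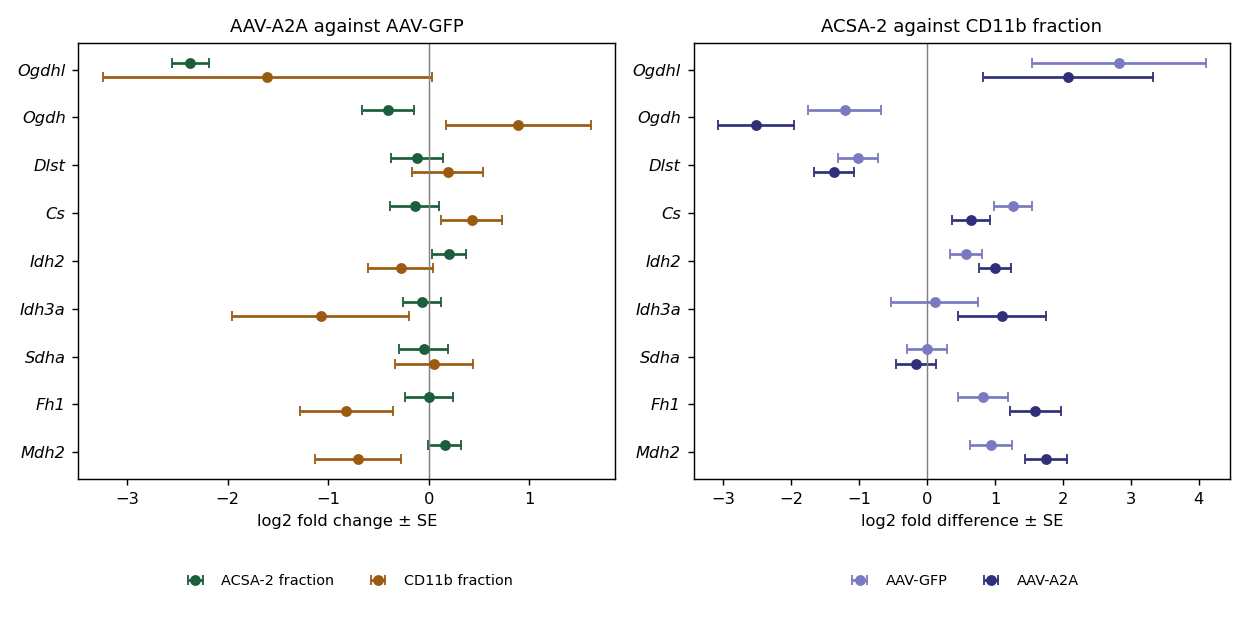
Left: Log2 FC of AAV-A2A against AAV-GFP in the ACSA-2 and CD11b fractions. Right: log2 fold difference of the ACSA-2 against the CD11b fraction in AAV-GFP and in AAV-A2A animals. Points are fitted values of the 9 genes and whiskers their SE. On the left Ogdhl in the ACSA-2 fraction, at -2.37, is far from the other 8 genes (-0.40 to 0.20), and the whiskers of the CD11b fraction are wider. On the right Ogdh and Dlst lie on the CD11b side and Mdh2, Fh1, Idh2 and Cs on the ACSA-2 side.

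Single genes of the cycle were called between the fractions, in both directions, as were many of all the genes tested. In AAV-A2A animals, Mdh2 (log2 difference 1.76, SE 0.31, Padj = 0.000824), Fh1 (1.59, SE 0.38, Padj = 0.00510) and Idh2 (1.00, SE 0.23, Padj = 0.00455) were higher in the astrocyte fraction. Ogdh (-2.52, SE 0.56, Padj = 0.00346) and Dlst (-1.37, SE 0.30, Padj = 0.00287) were higher in the CD11b fraction. These 5 calls held under every alternative run, the one without the libraries rich in choroid plexus transcripts included. In AAV-GFP controls, Cs (1.26, SE 0.28, Padj = 0.00657) and Mdh2 (0.94, SE 0.30, Padj = 0.0392) were called higher in astrocytes and Dlst (-1.02, SE 0.29, Padj = 0.0252) lower. The AAV-GFP calls were less firm. The call of Cs was lost without GFP-307 (1.06), that of Dlst without GFP-303 (-0.83), GFP-306 (-1.08), GFP-2328 (-0.81) or GFP-2329 (-1.05) and without the libraries rich in choroid plexus transcripts (-0.68), and that of Mdh2 in 8 of 12 fits that left out 1 library, where it was 0.76 to 0.95. Ogdh was lower in every AAV-GFP astrocyte library than in any AAV-GFP CD11b library but missed the threshold (-1.21, SE 0.54, Padj = 0.116), which it passed without A2A-2347 at -1.21, and it was -0.38 without the libraries rich in choroid plexus transcripts. Cs in AAV-A2A animals (0.64, SE 0.28, Padj = 0.0747) was called with DESeq2 (0.72), with DESeq2 size factors (0.74) and without A2A-310 (0.84). Sdha was nearly level between the fractions (-0.01, SE 0.30, and -0.16, SE 0.30). These counts, 3 called of the 8 genes in AAV-GFP and 5 of 8 in AAV-A2A animals, stand beside 26.7% of all genes called in AAV-GFP (12.3% higher and 14.4% lower in astrocytes) and 46.0% in AAV-A2A animals (21.0% higher, 25.0% lower). Whether the vectors differ in them was tested only by the fit described above.

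Ogdhl was higher in each astrocyte library than in each CD11b library of the same vector. The log2 difference was 2.82 (SE 1.28) in AAV-GFP and 2.07 (SE 1.25) in AAV-A2A animals, and without the 3 libraries rich in choroid plexus transcripts it was 7.21, against GFP-2331 alone, and 5.25, against A2A-2343 and A2A-2344. Idh3a, level between the fractions with all AAV-GFP libraries in (0.11, SE 0.64), came to 2.05 in favour of astrocytes without them, against 1 AAV-GFP CD11b library, and then passed the threshold, as did Fh1 (1.55 against 0.82, SE 0.37, with all libraries).

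Of 62 further genes in 7 lists around the cycle, 61 were tested in astrocytes and Abat alone was called, 1 gene beside the background of 3.36%. Abat, the transaminase that begins the breakdown of GABA towards succinate, was at 333, 401 and 461 CPM in AAV-GFP astrocytes and 156, 113 and 179 CPM in AAV-A2A astrocytes. All AAV-A2A libraries were below all AAV-GFP libraries, with a Log2 FC of -1.39 (SE 0.22, Padj = 0.00815). In the fit of all 12 libraries together it was -1.42 and not called. Aldh5a1, which completes this route to succinate and was singled out after its values were seen, went from 48.6, 44.7 and 46.2 CPM to 25.7, 26.2 and 29.4 CPM without passing (Log2 FC -0.75, SE 0.20, Padj = 0.0888). In the list of anaplerosis, glutamate and GABA entry 1 of 14 tested genes was therefore lower, beside 3.19% of all genes, with a median Log2 FC of -0.25. Its most abundant gene per kb, Glud1, which makes 2-oxoglutarate from glutamate, had a Log2 FC of 0.11 (SE 0.17, Padj = 0.879).

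The other lists held no called gene in astrocytes. The 10 other TCA cycle enzyme subunits had a median Log2 FC of 0.08 and a narrow range of -0.10 to 0.28, its upper end being Sdhd, a membrane anchor of succinate dehydrogenase (SE 0.17, Padj = 0.598). Relatives of the 2-oxoglutarate dehydrogenase complex and lipoylation genes (9 genes) had a median of 0.25 and were led by Lipt1, a lipoyl transferase (0.79, SE 0.51), while Bckdhb, the most abundant of them and an E1 subunit of the branched-chain complex, was at 0.25 (SE 0.21). For the pyruvate dehydrogenase complex with its kinases and phosphatases (13 genes) the median was 0.10, with Pdk2, the most abundant, at -0.21 (SE 0.25) and Pdpr, a regulator of the phosphatase, at 0.94 (SE 0.73). The 8 mitochondrial carriers had a median of 0.28. Slc25a18, a glutamate carrier and the most abundant, was at 0.26 (SE 0.20), and Slc25a13 at 2.10 (SE 1.61) from levels of at most 1.85 CPM. The cytosolic counterparts (3 genes, median 0.08, Mdh1 at 0.21, SE 0.18) and the 4 succinate dehydrogenase assembly genes (median 0.08, Sdhaf3 at 0.31, SE 0.34, and Sdhaf4 at -0.03, SE 0.25) were likewise near 0.

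In the CD11b fraction none of the 62 genes was called. The list medians ran from -0.97 for the succinate dehydrogenase assembly genes to 0.19 for anaplerosis, glutamate and GABA entry, beside -0.05 over all tested genes. In all 3 libraries rich in choroid plexus transcripts, 22 of the 62 were higher than in the other 3, beside 18.2% of all genes. Another 4 of the 62 were lower there, for which the share over all genes was not computed. The values of largest size in each list were -2.19 (SE 0.83, Padj = 0.293) for Slc25a21, the carrier of 2-oxoadipate and 2-oxoglutarate, 1.81 (SE 0.43, Padj = 0.280) for Acly, which splits citrate in the cytosol, 1.68 (SE 0.62) for Pdpr, -1.52 (SE 0.50) for Sdhaf4, -1.34 (SE 0.77) for Mdh1, -1.13 (SE 0.68) for Mrps36 and -1.05 (SE 0.51) for Suclg1. Acly did not overlap between the vectors, at 75.6, 86.2 and 145 CPM with AAV-GFP and 227, 483 and 371 CPM with AAV-A2A, and it was called by DESeq2 but not by edgeR. Abat again followed the choroid plexus transcripts, at 104, 180.2 and 299 CPM in the 3 libraries rich in them and 11.2 to 20.6 CPM in the others.

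**Figure D4:**
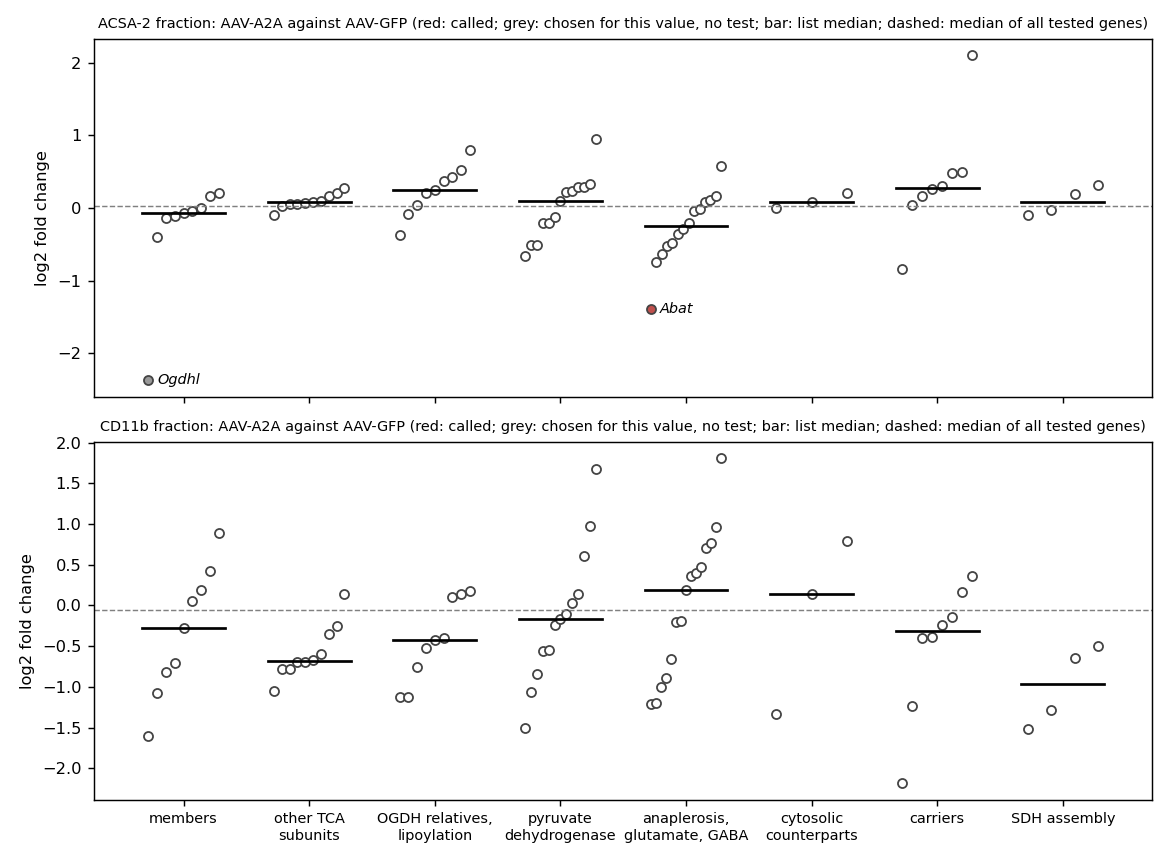
Log2 FC of AAV-A2A against AAV-GFP for the 9 members and the tested genes of 7 further lists (one point per gene, spread along the horizontal axis for legibility), in the ACSA-2 (top) and CD11b (bottom) fractions. Bars are list medians and the dashed line the median of all tested genes. In the ACSA-2 fraction Abat (-1.39) is the called, red point and the grey point is Ogdhl (-2.37), which was chosen for this value and is shown without a test. In the CD11b fraction there is no called point.

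Across the 12 libraries the genes whose log2 levels were most like those of Ogdhl, by Pearson correlation among 10778 genes with a mean of at least 5 CPM in astrocytes, were Fbln1, an extracellular matrix protein (r = 0.986), Itgb8, an integrin subunit (0.986), Bcar1, an adaptor of integrin signaling (0.986), Ddr1, a collagen receptor (0.984), and Igsf3 (0.977). These values carry the differences between fractions, vectors and choroid plexus content together, the libraries share 1 scaling, and no test is attached. They include the astrocyte values of Ogdhl that chose it, so genes lower with AAV-A2A in astrocytes tend to rank high by construction. Fbln1, for one, was at 422 ± 31.2 and 147 ± 13.4 CPM (SD, n = 3) in AAV-GFP and AAV-A2A astrocytes and at a mean of 64.3 and 27.9 CPM in the CD11b groups. Among the genes of the cycle and the 7 lists, Abat (r = 0.961, rank 20) and Aldh5a1 (r = 0.953, rank 25) came closest to Ogdhl. Both had already been described above as lower with AAV-A2A in astrocytes, so their ranks are no separate support for a link.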

How the data were processed

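RNA of sorted hippocampal cells was amplified (SMART-Seq v4, Nextera XT), sequenced and counted by the authors; the submitters' processing notes name bcl2fastq, cutadapt 1.10, STAR 2.5.3, HTSeq 0.6.1p1 and mm10, and uniquely aligned, unambiguous reads were kept. The deposited values are raw read counts per Ensembl gene, without molecular identifiers, so PCR duplicates are included. Libraries were grouped from the labels. Symbols, positions and lengths are from GENCODE vM21 (GRCm38), which held 27813 and 30289 of the identifiers. The members and lists were chosen with earlier results of these data known.

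Each fraction was analysed in R 4.3.3 by edgeR 4.0.16 quasi-likelihood tests (TMM, filterByExpr, robust dispersion, 6 libraries). Fraction differences and their contrast used 1 fit of 12 libraries on genes in both tables. Padj is the Benjamini-Hochberg value over all tested genes, and a call needs Padj under 0.05 and an absolute Log2 FC over 0.32. For the Ogdhl share in microglia an exact permutation test was run (scipy 1.17.1). Correlations used log2(CPM + 2). Alternatives were DESeq2 1.42.0, limma-voom (limma 3.58.1), other scaling, filters and lengths, a joint fit and each library left out; those on choroid plexus transcripts (summed marker level over 10000 CPM) were chosen after seeing the data. The count tests were tested on simulated data first. In the text are the 9 members, Adora2a, the most abundant gene, the genes of largest Log2 FC and the called genes of each list, the 5 genes most like Ogdhl, and markers that moved. Figures used matplotlib 3.10.9.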

Additional observations from a re-analysis of the deposited data

Results flagged for a closer look

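For 2 genes of the pyruvate dehydrogenase list, the vector groups were apart in both fractions but in opposite directions, and both were singled out for this after their values were seen. Groups were apart in either direction for 19.4% of all genes in astrocytes and 22.4% in the CD11b fraction. The share of all genes apart in opposite directions was not computed, so the count is not read as a result about the list. Pdk1, a kinase that inhibits the complex, was at 20.6 to 26.0 CPM in AAV-GFP and 13.6 to 15.6 CPM in AAV-A2A astrocytes, and at 53.7 to 81.3 and 107 to 151 CPM in the CD11b fraction. The difference of its vector effects was -1.69 (SE 0.33) on the log2 scale and missed the threshold (edgeR, Padj = 0.0531). Pdhb, the E1 beta subunit, showed the opposite pattern, with Log2 FC of 0.29 (SE 0.16) in astrocytes and -0.56 (SE 0.31) in the CD11b fraction and a difference of 0.79 (SE 0.33, Padj = 0.210).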

How the results depend on the processing

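No paired analysis was possible because the groups share no replicate numbers. The number of called genes, 553 in astrocytes, was 1277 with DESeq2, 156 in the fit of all 12 libraries and 272 to 448 when 1 library was left out. In microglia it was 0 with edgeR, 502 with DESeq2 and 3 without the libraries rich in choroid plexus transcripts, where 1 AAV-GFP library remains. For the difference between the vector effects it was 75, and 1740 with DESeq2, 10 with DESeq2 size factors, 0 without the libraries rich in choroid plexus transcripts and 0 to 1286 with 1 library left out (1286 without GFP-2331), so these counts depend on single libraries. The fall of Ogdhl in astrocytes was between -2.40 and -2.36 in the other 6 settings. The Ogdhl share in astrocytes fell by 24.4 points on raw counts without length, against 21.1, and the difference in microglia was -2.24 points without the libraries rich in choroid plexus transcripts.

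Signs turned only for genes that were not called, and for Ogdhl in the contrast of the fractions' vector effects (-1.81 to 2.46 with 1 library left out). In astrocytes, leaving out 1 library gave -0.42 to 0.066 for Cs, -0.34 to 0.025 for Dlst, -0.24 to 0.046 for Idh3a, -0.35 to 0.10 for Sdha, -0.32 to 0.14 for Fh1, -0.000225 to 0.21 for Glud1, -0.38 to 0.068 for Mrps36, -0.23 to 0.23 for Sdhaf4, -0.18 to 0.31 for Slc25a21 and -0.00072 to 0.14 for Suclg1. Fh1 was -0.039 with limma-voom, -0.0017 without a filter and -0.028 in the fit of 12 libraries. With limma-voom Sdhaf4 was 0.0065 and Slc25a21 -0.046. In microglia the same ranges were -2.75 to 0.98 for Abat (limma-voom -0.59), -0.053 to 0.43 for Dlst, -0.10 to 1.30 for Ogdh, -0.93 to 0.46 for Pdk2, -0.12 to 0.27 for Sdha (-0.037 with at least 10 counts in every library) and -1.81 to 0.11 for Slc25a13. Pdk2 was 0.48 with the choroid plexus covariate and 0.58 without the libraries rich in these transcripts, and Slc25a13 was 0.35 and 0.40. In AAV-GFP animals the fraction difference ranged from -0.35 to 0.54 for Idh3a and from -0.15 to 0.17 for Sdha, which was 0.25 without the libraries rich in choroid plexus transcripts. The contrast of vector effects for Sdha ranged from -0.44 to 0.021. The cause was not tested. Each group held 3 libraries, and counts of some of these genes were low, such as 17 for Mrps36 in CD11b library A2A-2344.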
